A study of Mus musculus with 8 samples.

Results

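The genes described here are 30 mouse genes of cholesterol and fatty acid synthesis, out of 55335 genes in the count table. They were chosen by name from knowledge of the pathway, with earlier results of these data known. They were sorted by role into 7 genes of the mevalonate arm, 11 genes of the squalene and sterol arm, 6 genes of SREBP control and sterol transport, and 6 genes of the fatty acid arm. All 30 genes passed the filter on low counts, as did 16504 genes in all. RNA was sequenced from E14 cells, a mouse embryonic stem cell (ESC) line, to ask how knockdown (KD) of Sox2, hnRNPK or Cdk9 alters gene expression. There were 4 groups of 2 replicates, which makes 8 libraries.

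Every library, control included, came from cells infected with a lentivirus carrying a short hairpin RNA (shRNA) and selected with puromycin at 1 µg per ml for 5 days. The control group carried the control shRNA labelled NG. The other groups carried shRNAs against Sox2, a pluripotency transcription factor, against Hnrnpk, an RNA-binding protein, or against Cdk9, the kinase that releases paused RNA polymerase II. The cells were kept on gelatin without feeder cells in serum, LIF, CHIR99021 and PD0325901. Which of the shRNAs against a gene a library received was not given in the sources used here. The study calls the replicates of a group biological duplicates; nothing in the sources says that they came from separate infections, and p-values measure the spread between these libraries only. Each library is bulk RNA, so fewer cells of a type and less RNA per cell cannot be told apart.

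Cholesterol is built from acetyl-CoA. The mevalonate arm makes farnesyl diphosphate, squalene synthase commits it to sterols, and a chain of oxidases, reductases and demethylases turns lanosterol into cholesterol. Fatty acids are built from the same acetyl-CoA by acetyl-CoA carboxylase and fatty acid synthase and are then elongated and desaturated. The membrane-bound transcription factors SREBP1 and SREBP2 control both branches. When sterol is scarce, SCAP escorts them out of the endoplasmic reticulum and their released ends enter the nucleus, and when sterol is plentiful the INSIG proteins hold SCAP back.

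The depth and the targeted genes bear on all that follows. Totals ran from 16709201 to 17719366 counts per library. Levels are CPM, read counts scaled to a common library total with TMM (trimmed mean of M-values) factors, and paired values are given for replicate 1 and then replicate 2. Sox2 was at 412 and 530 CPM in control and at 320 and 284 CPM in Sox2-KD (log2FC −0.64, edgeR quasi-likelihood adjusted p = 0.0479). Cdk9 was at 109 and 129 CPM in control and at 73.1 and 53.2 CPM in Cdk9-KD (log2FC −0.91, adjusted p = 0.0985). Hnrnpk was at 1095 and 1131 CPM in control and at 697 and 1144 CPM in the group labelled hnRNPK-KD. The second of these libraries was thus not below control, and the group is called the hnRNPK-labelled libraries. The 8 ESC markers examined summed to between 5837 and 7833 CPM, and of these Utf1 alone was called against control, higher in Sox2-KD. Primitive endoderm markers (5 of 7 tested, of which Dab2 and Gata6 rose in Sox2-KD) summed to 43.1 and 62.5 CPM in Sox2-KD. They summed to between 2.97 and 5.96 CPM in the other 6 libraries. Dab2 alone made up 35.0 and 54.2 CPM of the Sox2-KD sums. Sox17, Gata4 and Pdgfra were not called in Sox2-KD against control (log2FC 2.10, −0.255 and 0.39, edgeR quasi-likelihood adjusted p = 0.2, 0.838 and 0.638). Trophectoderm markers (6 of 7 tested, of which Gata3, Eomes, Krt7, Krt8 and Krt18 rose in Sox2-KD and Eomes in Cdk9-KD) summed to 159 and 288 CPM in Sox2-KD and to between 45.8 and 113 CPM elsewhere. Cdx2, of the same list, went the other way, at 6.10 and 6.22 CPM in Sox2-KD against 19.8 to 85.1 CPM elsewhere, and was called lower than in Cdk9-KD and in the hnRNPK-labelled libraries but not than in control (log2FC −2.15, adjusted p = 0.0521). Fibroblast markers (4 of 7 tested) summed to between 7.86 and 15.7 CPM, Lum rose in Sox2-KD (1.26 and 0.742 CPM), Col1a2 was lower there without passing (log2FC −3.44, adjusted p = 0.0565), and Dcn, Postn and Col3a1 did not pass the filter. The part of these cell types in the results below was not tested.

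The promoters of 4 genes are shown as examples. Hmgcs1 was the only gene with an exact match to the SREBP letters given below, among the 24 with a promoter window. Mvd, Ebp and Scap were among the 5 of the 30 genes highest in both Sox2-KD libraries, a share close to the 13.6% of all genes. Each sequence is the 250 bases before the RefSeq start of the gene, on the gene's own strand and on GRCm38.p6, with motif matches in capitals. The letters searched on both strands were TCACNCCAC (the SREBP element), CCAAT (the NF-Y box, which reads ATTGG on the other strand) and GGGCGG (the Sp1 box, which reads CCGCCC).
Hmgcs1, chr13:119690101-119690350, plus strand: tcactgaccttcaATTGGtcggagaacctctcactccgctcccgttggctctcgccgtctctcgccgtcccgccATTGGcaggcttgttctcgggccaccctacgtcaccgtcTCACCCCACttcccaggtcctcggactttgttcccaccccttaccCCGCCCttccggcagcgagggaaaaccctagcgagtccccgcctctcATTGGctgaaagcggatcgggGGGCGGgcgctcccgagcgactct
Mvd, chr8:122443423-122443672, minus strand: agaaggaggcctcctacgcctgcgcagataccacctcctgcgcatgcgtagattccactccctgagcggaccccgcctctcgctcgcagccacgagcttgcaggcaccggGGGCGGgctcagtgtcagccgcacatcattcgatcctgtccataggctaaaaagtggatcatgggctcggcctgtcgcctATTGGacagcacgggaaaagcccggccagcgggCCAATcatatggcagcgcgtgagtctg
Ebp, chrX:8193513-8193762, minus strand: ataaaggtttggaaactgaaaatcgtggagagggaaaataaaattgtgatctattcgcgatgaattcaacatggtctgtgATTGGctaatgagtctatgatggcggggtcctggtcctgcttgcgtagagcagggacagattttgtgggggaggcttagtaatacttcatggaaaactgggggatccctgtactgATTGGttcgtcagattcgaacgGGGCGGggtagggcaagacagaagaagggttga
Scap, chr9:110333038-110333287, plus strand: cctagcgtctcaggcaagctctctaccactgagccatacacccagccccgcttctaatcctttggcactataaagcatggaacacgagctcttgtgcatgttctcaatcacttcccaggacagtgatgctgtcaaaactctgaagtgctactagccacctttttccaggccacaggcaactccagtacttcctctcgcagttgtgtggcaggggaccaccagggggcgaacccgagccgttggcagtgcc

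In the Hmgcs1 sequence the SREBP element began 137 bases before the start, and NF-Y boxes began 237, 176 and 45 bases before it. The Mvd sequence held NF-Y boxes at 60 and 27 bases before the start and an Sp1 box at 140 bases. The Ebp sequence held NF-Y boxes at 170 and 55 bases and an Sp1 box at 33 bases. These 250 bases of Scap held no match. Windows reaching 50 bases past the start held 1 Sp1 box at this start and 3 at a second RefSeq start of Scap. Over windows from 250 bases before to 50 bases after each start, RefSeq gave a window for 24 of the 30 genes. The exact SREBP letters occurred in 1 of these 24 genes (4.17%) and in 1.44% of the 27025 genes of all kinds with a window. The NF-Y box occurred in 20 of the 24 genes (83.3%), against 41.1% of all genes with a window and 43.2% of those that were also tested here. The Sp1 box also occurred in 20 of the 24 (83.3%), against 38.2% of all and 66.7% of the tested genes. A letter match is a description of the sequence and not a bound site. Variants of these letters were not searched, so a gene without a match may still hold an element.

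The genes spanned a wide range of levels in these ESCs. Per kb of annotated exon, the mean level over the 8 libraries was highest for Scd2, a stearoyl-CoA desaturase, at 155 CPM per kb. Acly, which makes cytosolic acetyl-CoA from citrate, stood at 97.6 CPM per kb, Elovl6, a fatty acid elongase, at 67.5 CPM per kb, and Hmgcs1, the HMG-CoA synthase, at 56.9 CPM per kb. The fatty acid arm summed to between 2088 and 3534 CPM per library. The 18 genes of the mevalonate and sterol arms together summed to between 856 and 1428 CPM. The lowest level per kb was that of Fdps, farnesyl diphosphate synthase, at 0.871 CPM per kb, from 25 to 99 counts per library. Fdps shares 1124 exon bases with Gm43738 on the same strand, which had 0 counts in every library, so its counts are uncertain.

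**Figure D1:**
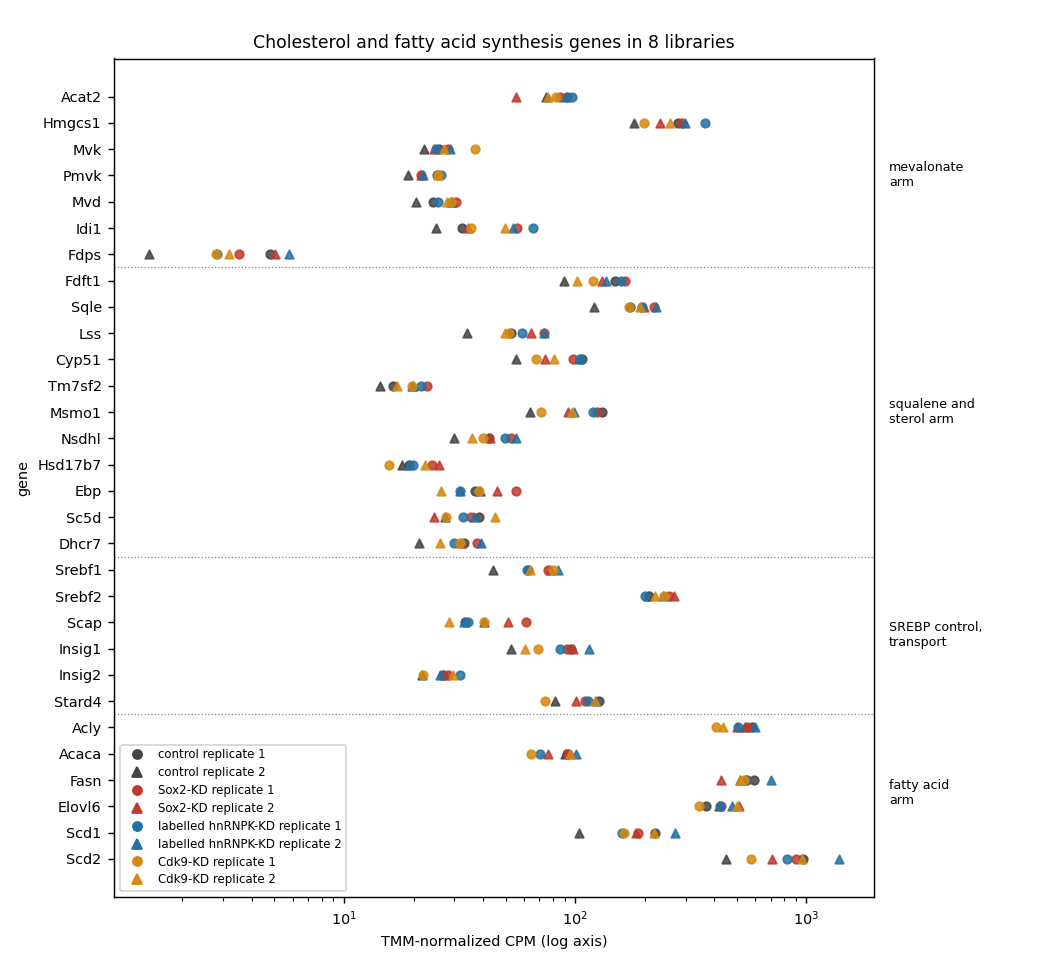
Level of each of the 30 genes (rows, grouped by role) in each of the 8 libraries, as TMM-normalized CPM on a log axis; circles are replicate 1 and triangles replicate 2. Scd2 reached 1385 CPM in the second hnRNPK-labelled library, and the dark triangle of control replicate 2 lies at the left edge of the points for 19 genes.

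In the mevalonate arm, Hmgcs1 (mm10 chr13:119690379-119708260) had the highest CPM. It was at 277 and 180 CPM in control, 289 and 232 CPM in Sox2-KD, 363 and 297 CPM in the hnRNPK-labelled libraries, and 199 and 256 CPM in Cdk9-KD. Both hnRNPK-labelled libraries were above both controls (log2FC 0.53 ± 0.22 SE, adjusted p = 0.586), while the Sox2-KD and Cdk9-KD values overlapped those of control. Without control replicate 2 that Hmgcs1 difference was 0.24, and without control replicate 1 it was 0.85. Idi1 (chr13:8885501-8892451), the isomerase that makes dimethylallyl diphosphate, was at 32.5 and 25.1 CPM in control, 56.0 and 34.2 CPM in Sox2-KD, 65.7 and 53.8 CPM in the hnRNPK-labelled libraries, and 35.5 and 49.8 CPM in Cdk9-KD. Both control libraries lay below the other 6. Its difference between the hnRNPK-labelled libraries and control was the largest of any of the 30 genes in any comparison, at log2FC 1.05 ± 0.26 (SE), with an edgeR quasi-likelihood adjusted p of 0.361. Under DESeq2 and the edgeR likelihood ratio test the same difference had adjusted p-values of 0.0191 and 0.0316, so this call depends on the test. Of the Idi1 transcript, 22.6% is near-identical to Gm13502 (3 to 23 counts) and 22.5% to Gm35570 (0 to 5 counts). Idi1 also shares 323 exon bases with Gm48574 on the opposite strand.

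Mvd, the mevalonate diphosphate decarboxylase, was at 24.3 and 20.4 CPM in control, 30.5 and 29.3 CPM in Sox2-KD, 25.6 and 29.0 CPM in the hnRNPK-labelled libraries, and 29.1 and 27.8 CPM in Cdk9-KD. Both controls were lowest and both Sox2-KD libraries highest. Fdps, lowest in CPM, was at 4.79 and 1.43 CPM in control, and the control replicates themselves differed 3.34-fold. Across its 8 libraries, Acat2, the cytosolic thiolase, ran from 55.4 to 96.6 CPM, Mvk, the mevalonate kinase, from 22.3 to 36.9 CPM, and Pmvk, the phosphomevalonate kinase, from 18.9 to 26.4 CPM. For Acat2 these counts are uncertain, since 65.6% of its transcript is near-identical to Acat3 (7 to 27 counts) and 19.8% to Tcp1 (9244 to 11820 counts). The Acat2 minimum was Sox2-KD replicate 2 and the Mvk maximum Cdk9-KD replicate 1. Over the 7 genes, the median log2FC against control was 0.19 in Sox2-KD, 0.29 in the hnRNPK-labelled libraries and 0.20 in Cdk9-KD. Without control replicate 2 these medians were −0.10, 0.06 and −0.02, and without control replicate 1 they were 0.51, 0.40 and 0.44. The Sox2-KD median was 0.03 without Sox2-KD replicate 1.

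In the squalene and sterol arm, Sqle, the squalene epoxidase, had the highest CPM. It was at 172 and 121 CPM in control, 219 and 199 CPM in Sox2-KD, 195 and 224 CPM in the hnRNPK-labelled libraries, and 171 and 190 CPM in Cdk9-KD. Control replicate 2 stood below the other 7 libraries and control replicate 1 beside Cdk9-KD replicate 1. Its log2FC against control was 0.52 in Sox2-KD (adjusted p = 0.138) and 0.52 in the hnRNPK-labelled libraries (adjusted p = 0.515). Both Sqle differences were 0.28 without control replicate 2. Tm7sf2, a sterol reductase, had the lowest CPM of the arm. It was at 16.3 and 14.3 CPM in control, 22.8 and 19.97 CPM in Sox2-KD, 21.5 and 19.7 CPM in the hnRNPK-labelled libraries, and 19.6 and 16.97 CPM in Cdk9-KD. Both controls lay below the other 6 libraries, and Tm7sf2 shares 532 exon bases on the same strand with Vps51.

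Lss, the lanosterol synthase, was at 52.9 and 34.2 CPM in control, 73.0 and 64.1 CPM in Sox2-KD, 58.9 and 73.3 CPM in the hnRNPK-labelled libraries, and 51.9 and 49.5 CPM in Cdk9-KD. Sox2-KD did not overlap control (log2FC 0.65 ± 0.21 SE, adjusted p = 0.112), and this was the lowest adjusted p of the 30 genes in that comparison. Leaving out control replicate 2 gave an Lss difference of 0.36, and leaving out control replicate 1 gave 0.98. Ebp (chrX:8185329-8193512), the sterol isomerase, was at 36.8 and 38.8 CPM in control, 55.7 and 46.1 CPM in Sox2-KD, 31.7 and 31.7 CPM in the hnRNPK-labelled libraries, and 38.3 and 26.4 CPM in Cdk9-KD. Both Sox2-KD libraries were above the other 6, and the hnRNPK-labelled libraries were below both controls. The direct difference between Sox2-KD and the hnRNPK-labelled libraries was log2FC 0.68 ± 0.20 (SE, adjusted p = 0.07).

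Hsd17b7, the reductase of the sterol demethylation steps, was at 19.0 and 17.8 CPM in control and at 24.1 and 25.7 CPM in Sox2-KD, with 15.6 to 22.5 CPM in the other 4 libraries. Here too both Sox2-KD libraries were highest, with log2FC 0.44 against control (adjusted p = 0.287). The control replicates of Msmo1, a sterol methyl oxidase, were at 130 and 63.8 CPM, which span its values in the other 6 libraries (71.3 to 125 CPM). Those of Cyp51, the lanosterol demethylase, were at 107 and 55.7 CPM and likewise spanned the other 6 (67.5 to 105 CPM). The others ran from 89.8 to 164 CPM (Fdft1, squalene synthase), 29.9 to 55.5 CPM (Nsdhl, a sterol dehydrogenase), 24.4 to 44.9 CPM (Sc5d, a sterol desaturase) and 21.1 to 38.9 CPM (Dhcr7, which makes cholesterol from its dehydro precursor). Control replicate 2 was the minimum for Fdft1, Nsdhl and Dhcr7, and Sox2-KD replicate 2 for Sc5d. Fdft1 shares 774 exon bases with Ctsb on the opposite strand, and the strand setting of the counting was not given in the sources used here. The median log2FC of the 11 genes against control was 0.40 in Sox2-KD, 0.35 in the hnRNPK-labelled libraries and 0.07 in Cdk9-KD. Without control replicate 2 these medians were 0.16, 0.02 and −0.19, without control replicate 1 they were 0.66, 0.69 and 0.36, and without Cdk9-KD replicate 1 that of Cdk9-KD was −0.04.

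**Figure D2:**
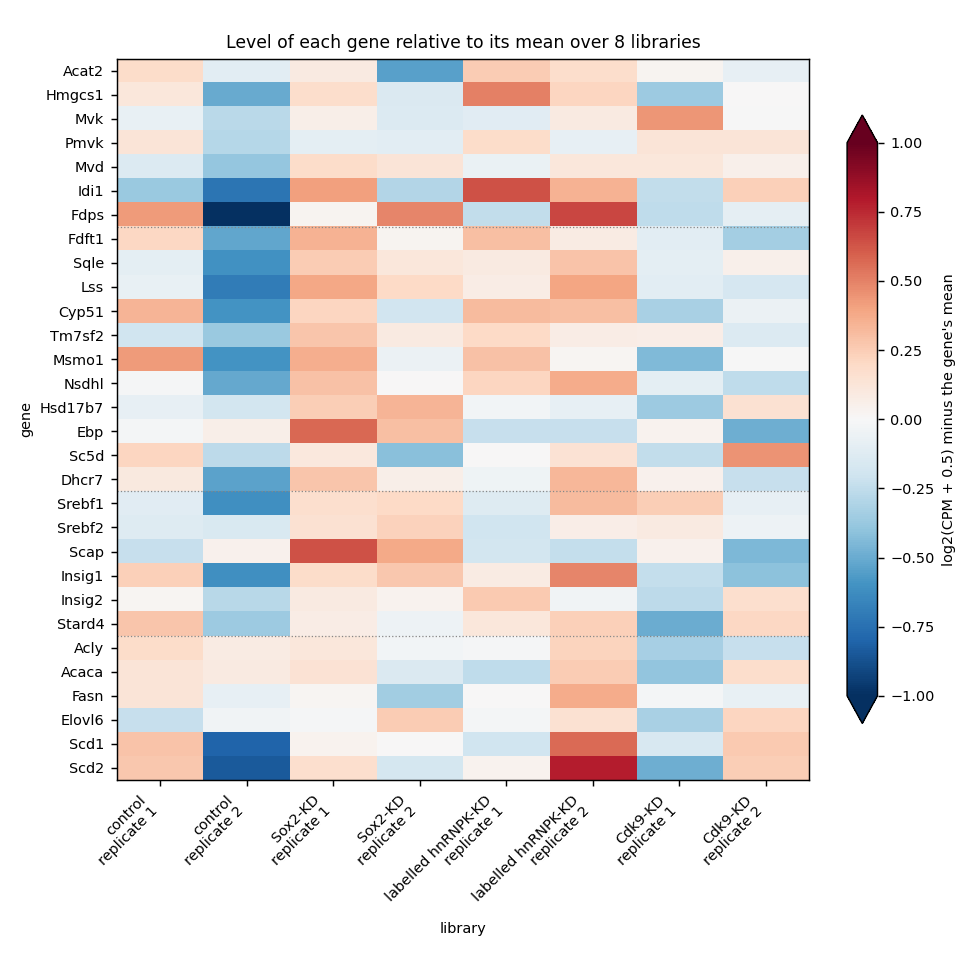
Level of each of the 30 genes (rows) in each of the 8 libraries (columns), as log2(CPM + 0.5) minus that gene's mean over the libraries; dotted lines divide the role groups and colours saturate at a difference of 1. The column of control replicate 2 is blue for most genes, whereas control replicate 1 is not.

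Among the regulators, Scap (chr9:110333288-110384950), the escort of SREBP, was at 33.3 and 40.4 CPM in control, 61.3 and 51.0 CPM in Sox2-KD, 34.4 and 33.1 CPM in the hnRNPK-labelled libraries, and 40.4 and 28.6 CPM in Cdk9-KD. Both Sox2-KD libraries stood above the other 6. The log2FC of Sox2-KD was 0.61 ± 0.20 against control (SE, adjusted p = 0.118), 0.70 ± 0.20 against Cdk9-KD (adjusted p = 0.0581) and 0.73 ± 0.20 against the hnRNPK-labelled libraries (adjusted p = 0.0577). Scap shares 985 exon bases with 5830462I19Rik on the opposite strand, which had 1 to 11 counts. Srebf2, which encodes SREBP2, had the highest CPM among the regulators. It was at 209 and 206 CPM in control, 254 and 268 CPM in Sox2-KD, 200 and 239 CPM in the hnRNPK-labelled libraries, and 243 and 222 CPM in Cdk9-KD. Again both Sox2-KD libraries were above the other 6, with log2FC 0.33 ± 0.14 (SE) against control (adjusted p = 0.235).

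Srebf1, which encodes SREBP1, was at 62.6 and 43.9 CPM in control, 76.1 and 77.9 CPM in Sox2-KD, 61.9 and 84.3 CPM in the hnRNPK-labelled libraries, and 80.3 and 64.0 CPM in Cdk9-KD. Sox2-KD and Cdk9-KD did not overlap control (log2FC 0.53 and 0.44, adjusted p = 0.197 and 0.508), and without control replicate 2 the Srebf1 difference in Sox2-KD was 0.29. Insig1, the sterol-responsive brake on SCAP, was at 96.0 and 52.9 CPM in control, 92.3 and 98.2 CPM in Sox2-KD, 86.2 and 114 CPM in the hnRNPK-labelled libraries, and 69.0 and 60.9 CPM in Cdk9-KD. Its control replicates spanned both Cdk9-KD values, and both Cdk9-KD values lay below those of Sox2-KD and of the hnRNPK-labelled libraries. Insig2, the other INSIG gene and the lowest of the group in CPM, was at 26.9 and 21.8 CPM in control, 28.2 and 27.2 CPM in Sox2-KD, 31.8 and 25.9 CPM in the hnRNPK-labelled libraries, and 21.97 and 29.7 CPM in Cdk9-KD. Stard4, a cytosolic sterol carrier, ran from 74.1 to 127 CPM and overlapped between control and every other group.

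**Figure D3:**
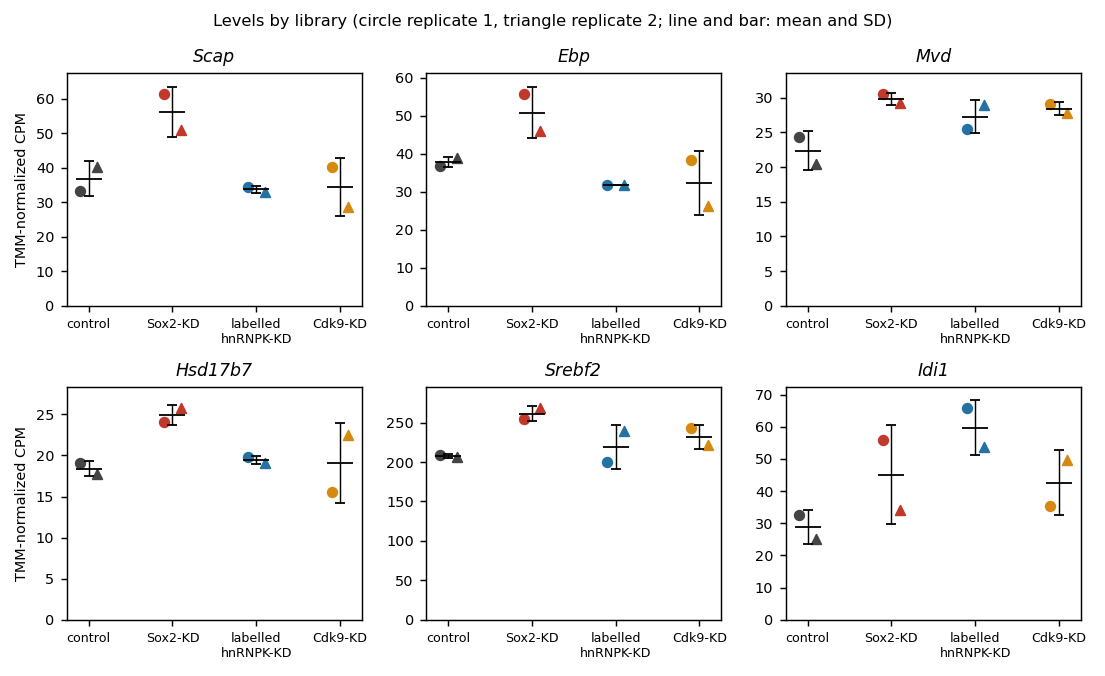
TMM-normalized CPM of Scap, Ebp, Mvd, Hsd17b7, Srebf2 and Idi1 in each library, by group, with the axis from 0; the horizontal line and bar are the mean and SD of n = 2 replicates. For the first 5 genes both Sox2-KD points lie above the other 6 libraries, as they do for 13.6% of all genes. For Idi1 both control points lie below the other 6 libraries.

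In the fatty acid arm, Scd2 (chr19:44293674-44306864) had the highest CPM and the widest spread of the arm. It was at 969 and 450 CPM in control, 903 and 713 CPM in Sox2-KD, 825 and 1385 CPM in the hnRNPK-labelled libraries, and 573 and 955 CPM in Cdk9-KD. Every pair of groups overlapped, and the control replicates alone differed by 1.11 on the log2 scale. Scd1, its paralog, with 11.4% of the Scd2 transcript near-identical, had the same extremes, with 104 CPM in control replicate 2 and 270 CPM in the second hnRNPK-labelled library. Acaca, an acetyl-CoA carboxylase, had the lowest CPM of the arm. It was at 92.1 and 90.0 CPM in control, 93.2 and 76.3 CPM in Sox2-KD, 70.8 and 101 CPM in the hnRNPK-labelled libraries, and 64.1 and 95.2 CPM in Cdk9-KD, and 64.3% of its transcript has a near-identical copy in Gm5182 (53 to 101 counts).

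Acly was at 580 and 540 CPM in control, 553 and 503 CPM in Sox2-KD, 506 and 598 CPM in the hnRNPK-labelled libraries, and 407 and 435 CPM in Cdk9-KD. Both Cdk9-KD libraries lay below the other 6 (log2FC −0.41 ± 0.14 SE against control, adjusted p = 0.358). Fasn, the fatty acid synthase, ran from 428 CPM in Sox2-KD replicate 2 to 703 CPM in the second hnRNPK-labelled library. Elovl6 ran from 343 to 512 CPM and was at 366 and 421 CPM in control against 428 and 512 CPM in Sox2-KD. The median log2FC of the 6 genes against control was 0.05 in Sox2-KD, 0.18 in the hnRNPK-labelled libraries and 0.01 in Cdk9-KD. Without control replicate 2 these medians were −0.21, 0.001 and −0.24, and without the second hnRNPK-labelled library that of this group was −0.05. Without Cdk9-KD replicate 1 or 2 that of Cdk9-KD was 0.17 or −0.25, and without Sox2-KD replicate 1 that of Sox2-KD was −0.08.

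The comparisons with control asked whether these genes differed between each shRNA group and control. A call required an adjusted p under 0.05 over all genes tested and an absolute log2FC over 0.6. In Sox2-KD against control, 0 of the 30 genes were called by the edgeR quasi-likelihood test, while 713 of all genes tested (4.32%) were. DESeq2 and the edgeR likelihood ratio test also called 0 of the 30. At an unadjusted p under 0.05 there were 8 of the 30 genes, namely Lss, Scap, Sqle, Idi1, Srebf1, Tm7sf2, Mvd and Srebf2, each higher in Sox2-KD, against a background of 19.3% of all genes in either direction. The groups did not overlap for 13 of the 30 genes, higher in Sox2-KD, against 28.2% of all genes, and for 0 genes, lower in Sox2-KD, against 25.2%. The log2FC was above 0 for 24 of the 30 genes, with a median of 0.28, and the median over all genes was 0.02.

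Read over all groups, both Sox2-KD libraries exceeded all 6 others for Mvd, Hsd17b7, Ebp, Srebf2 and Scap. These 5 of the 30 genes are a share close to the 13.6% of all genes, so the pattern does not set the pathway apart. They were below all 6 others for 0 of the 30, against 11.6% of all genes.

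In the hnRNPK-labelled libraries against control, the quasi-likelihood test called 0 of the 30 genes and also 0 of all genes (0.0%). DESeq2 and the likelihood ratio test each called 1 of the 30, Idi1, and 83 and 87 of all genes. At an unadjusted p under 0.05 there were 6 of the 30 genes (Idi1, Sqle, Lss, Nsdhl, Hmgcs1 and Tm7sf2), each higher than control, against 8.03% of all genes. The groups did not overlap for 9 genes higher than control (20.4% of all genes) and for 1 gene, Ebp, lower (18.7%). The log2FC was above 0 for 26 of the 30 genes, with a median of 0.27 against 0.02 over all genes.

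In Cdk9-KD against control, the quasi-likelihood test called 0 of the 30 genes and 23 of all genes (0.139%), and DESeq2 and the likelihood ratio test also called 0 of the 30. At an unadjusted p under 0.05 there was 1 gene, Acly, lower in Cdk9-KD, against 10.4% of all genes. The groups did not overlap for 7 genes higher in Cdk9-KD (21.2% of all genes), namely Mvk, Pmvk, Mvd, Idi1, Tm7sf2, Srebf1 and Srebf2, and for 1 gene, Acly, lower (18.0%). The log2FC was above 0 for 17 of the 30 genes, and the median was 0.08. These 3 comparisons share the same control libraries.

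**Figure D4:**
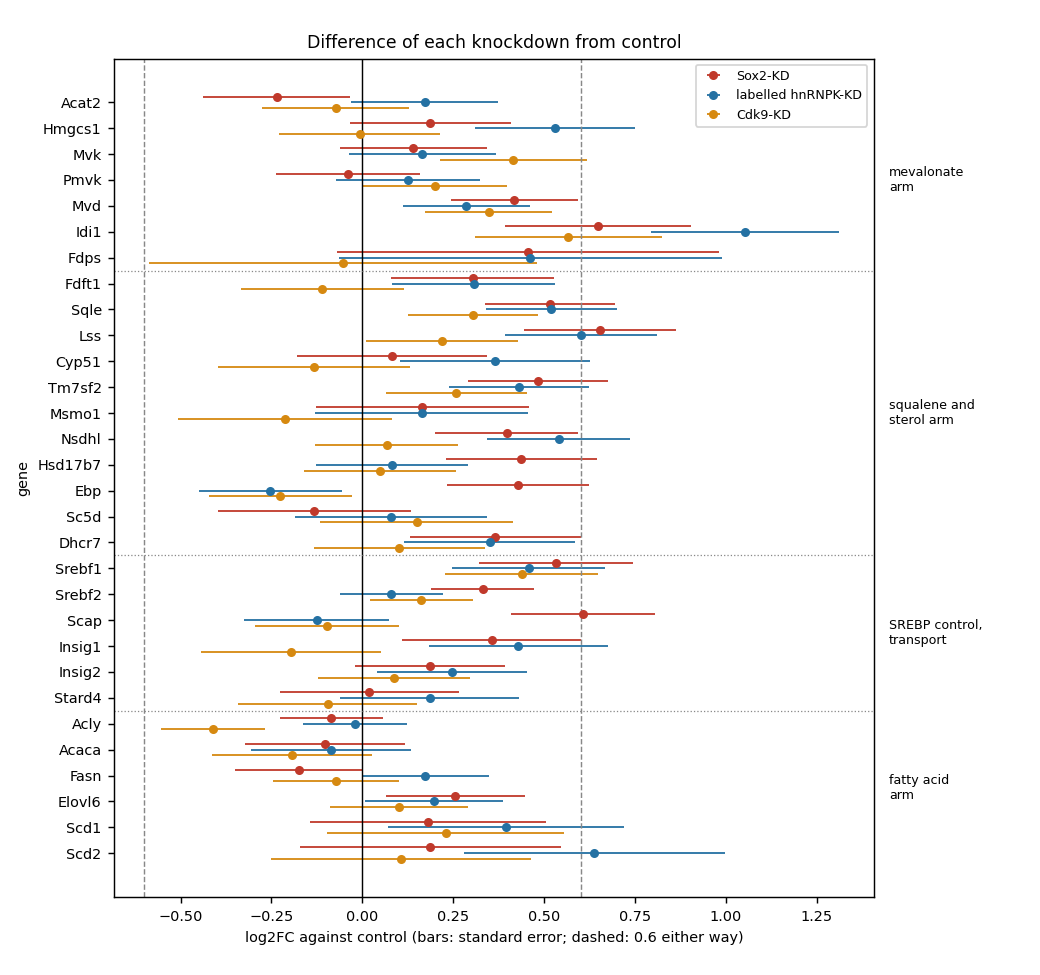
The log2FC of each of the 30 genes against control in Sox2-KD, the hnRNPK-labelled libraries and Cdk9-KD, from the edgeR fit on all 8 libraries; bars are 1 standard error and dashed lines mark an absolute log2FC of 0.6. Most Sox2-KD and hnRNPK-labelled points lie right of 0, with 24 and 26 of the 30 above it, and 0 of the points passed the test.

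The knockdowns were also compared with each other, which leaves the control libraries out of the difference. Between Sox2-KD and Cdk9-KD, 0 of the 30 genes were called by the quasi-likelihood test (7.33% of all genes), although DESeq2 and the likelihood ratio test each called 2, Scap and Ebp, both higher in Sox2-KD, beside 1441 and 1869 of all genes. At an unadjusted p under 0.05 there were 4 genes (Scap, Ebp, Insig1 and Acly), each higher in Sox2-KD, against 21.7% of all genes. The groups did not overlap for 14 genes higher in Sox2-KD (24.7%) and for 1 gene, Pmvk, lower (25.1%). The log2FC was above 0 for 24 of the 30 genes, with a median of 0.18 against −0.02 over all genes. The median of the 30 genes ran from 0.11 to 0.33 when each library was left out in turn. In these fits the log2FC of Scap ran from 0.47 to 0.99 and that of Ebp from 0.40 to 0.97.

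Between Sox2-KD and the hnRNPK-labelled libraries, 0 of the 30 genes were called (5.9% of all genes), and DESeq2 and the likelihood ratio test each called Scap and Ebp, higher in Sox2-KD, beside 1286 and 1690 of all genes. These were also the 2 genes at an unadjusted p under 0.05, against 21.3% of all genes. The groups did not overlap for 5 genes higher in Sox2-KD (27.6%), the same that were highest in Sox2-KD over all libraries, and for 5 genes lower (27.3%), namely Acat2, Hmgcs1, Pmvk, Cyp51 and Stard4. The median log2FC of the 30 genes was −0.02, and it ran from −0.15 to 0.08 when each library was left out in turn.

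Between Cdk9-KD and the hnRNPK-labelled libraries, the quasi-likelihood test called 0 of the 30 genes and 0 of all genes (0.0%), and DESeq2 and the likelihood ratio test called 0 of the 30 and 53 and 67 of all genes. At an unadjusted p under 0.05 there were 4 genes (Insig1, Acly, Hmgcs1 and Nsdhl), each lower in Cdk9-KD, against 5.71% of all genes. The groups did not overlap for 13 genes lower in Cdk9-KD (14.3%) and for 0 genes higher (17.4%). These 13 were Acat2, Hmgcs1, Idi1, Fdft1, Sqle, Lss, Cyp51, Tm7sf2, Msmo1, Nsdhl, Insig1, Acly and Fasn, and the median log2FC of the 30 genes was −0.23, against 0.01 over all genes. The median of the 30 genes ran from −0.34 to −0.09 when each library was left out in turn, and was −0.09 without the second hnRNPK-labelled library.

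A single control library stood apart in this pathway. Control replicate 2 held the lowest of the 8 values for 19 of the 30 genes, whereas it held the lowest value for 13.2% of all genes tested. Among the 18 genes of the mevalonate and sterol arms it was lowest for 14. The second hnRNPK-labelled library held the highest value for 12 of the 30 genes, against 9.6% of all genes. Control replicate 1 was above control replicate 2 for 27 of the 30 genes, with a median difference of 0.45 (log2), against 0.01 over all genes. The same difference between replicates had a median of 0.19 over the 30 genes in Sox2-KD, −0.16 in the hnRNPK-labelled libraries and −0.05 in Cdk9-KD.

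**Figure D5:**
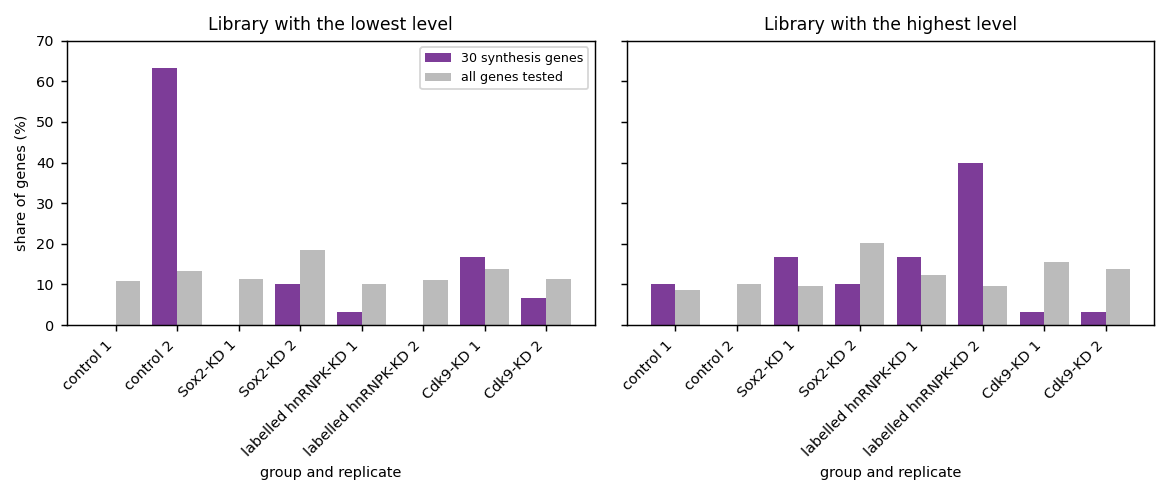
Share of the 30 genes (purple) and of all 16504 genes tested (grey) for which each library held the lowest (left) or highest (right) of the 8 values. Control replicate 2 was lowest for 19 of 30 genes against 13.2% of all genes, and the second hnRNPK-labelled library was highest for 12 of 30 against 9.6%.

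The summed CPM of the 30 genes moved with these libraries. It was 4656 and 3422 CPM in control, 4759 and 4193 CPM in Sox2-KD, 4486 and 5519 CPM in the hnRNPK-labelled libraries, and 3683 and 4402 CPM in Cdk9-KD. The mean was 4039 ± 873 CPM in control and 4043 ± 509 CPM in Cdk9-KD (SD, n = 2), and 4476 ± 401 and 5003 ± 731 CPM in the other groups. Without control replicate 2, the median log2FC of the 30 genes against control was 0.01 in Sox2-KD (15 of 30 above 0), 0.05 in the hnRNPK-labelled libraries (19 of 30) and −0.20 in Cdk9-KD (9 of 30). Without control replicate 1, it was 0.52 in Sox2-KD (26 of 30 above 0), 0.51 in the hnRNPK-labelled libraries (27 of 30) and 0.31 in Cdk9-KD (24 of 30). Leaving out either control library thus moved each of these medians by more than 1.5 times, and that of Cdk9-KD changed sign without control replicate 2. For Scap, whose control values were 33.3 and 40.4 CPM, control replicate 2 was the higher of the pair, and the log2FC in Sox2-KD ranged from 0.46 to 0.75 when each library was left out in turn. For Srebf2 that range was 0.29 to 0.36.

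Other genes of the pathway were read beside the 30. Of 20 further SREBP targets and lipid synthesis genes, 19 were tested and 0 were called in any comparison with control. Of all genes, 4.32% were called in Sox2-KD, 0.0% in the hnRNPK-labelled libraries and 0.139% in Cdk9-KD. Few calls could thus be expected among 19 genes. Their median log2FC was −0.15 in Sox2-KD, −0.06 in the hnRNPK-labelled libraries and −0.02 in Cdk9-KD, against 0.02 over all genes in each. By size of log2FC against control the largest values reported here were those of Me1 and Pnpla3 in Sox2-KD (0.73 and −0.72), Fads2 in the hnRNPK-labelled libraries (0.48) and Mid1ip1 and Lpin1 in Cdk9-KD (−0.72 and −0.46). Between the knockdowns, Acss2, which makes acetyl-CoA from acetate, was lower in Sox2-KD than in Cdk9-KD (log2FC −0.75, adjusted p = 0.0305). Me1, which supplies NADPH for lipid synthesis, was higher in Sox2-KD than in the hnRNPK-labelled libraries (log2FC 1.07, adjusted p = 0.0284). The Me1 values were 108 and 179 CPM in Sox2-KD and 69.0 and 67.3 CPM in the hnRNPK-labelled libraries. The Acss2 call was lost when any of its 4 libraries was left out (adjusted p 0.0811 to 0.159), and the Me1 call remained only without Sox2-KD replicate 1 (adjusted p = 0.0107).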

How the data were processed

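Polyadenylated RNA of 8 libraries was sequenced with paired-end reads, with 16709201 to 17719366 counts per library. The authors trimmed reads with Trimmomatic, aligned them to mm10 with STAR (2.7.9a in the submitters' processing notes) and deposited raw counts per gene from featureCounts 2.0.1 on GENCODE vM23. The strand setting and the treatment of shared reads were not given in the sources used here. Symbols were matched by Ensembl ID from a separate gene name reference (55154 of 55335 genes), and exon lengths and positions came from GENCODE vM21 on the same build. Low counts were dropped with filterByExpr at a count of 10 and a total of 15, and the remaining genes were tested with edgeR 4.0.16 in R 4.3.3 (TMM, quasi-likelihood, all 8 libraries, group term, Benjamini-Hochberg adjustment), with calls at adjusted p under 0.05 and absolute log2FC over 0.6. The biological coefficient of variation was 0.186. DESeq2 1.42.0 and other settings were alternatives, and the fit was tested on simulated data. Near-identical copies were transcripts alike at 95% or more over 150 bases and 10% of the transcript. Promoters came from RefSeq (GRCm38.p6). Differences between replicates used log2(CPM + 0.5).

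The 30 genes and the other lists were chosen with earlier results of these data known. Named in detail were called genes, the highest and lowest CPM of each role group, and the SREBP regulators. Genes named beyond this were chosen after their values were seen. Replicates were checked for pairing and for duplicates, and differed beyond counting error. The median within-group SD of the 30 genes was 0.194 (log2). Some genes of the other lists are not reported here.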

Additional observations from a re-analysis of the deposited data

Results flagged for a closer look

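Ebp was picked out from its values, which moved in opposite directions from control in Sox2-KD and in the hnRNPK-labelled libraries. Both Sox2-KD libraries lay above both controls (log2FC 0.43, edgeR quasi-likelihood adjusted p = 0.264), as for 28.2% of all genes. Both hnRNPK-labelled libraries lay below both controls (log2FC −0.25, adjusted p = 0.823), as for 18.7% of all genes. The direct test between the knockdowns gave a log2FC of 0.68 with an edgeR quasi-likelihood adjusted p of 0.07, so the difference did not pass the threshold. Over the alternatives this adjusted p ranged from 0.025 to 0.257.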

How the results depend on the processing

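The quasi-likelihood count of 0 called among the 30 genes held in every comparison under RLE size factors, without the filter on low counts, and with an adjusted p under 0.05 alone. Sox2-KD against Cdk9-KD gave 1 (Scap) under library totals, beside 1288 of all genes. It gave 2 (Scap and Ebp) under the likelihood ratio test and DESeq2, beside 1869 and 1441 of all genes. Sox2-KD against the hnRNPK-labelled libraries gave 2 (Scap and Ebp) under library totals, the likelihood ratio test and DESeq2. Beside these, 1153, 1690 and 1286 of all genes were called. With only the 4 libraries compared it gave 1 (Scap), beside 867 of all genes. The hnRNPK-labelled libraries against control gave 1 (Idi1) under the likelihood ratio test and DESeq2, beside 87 and 83 of all genes. The cause was not tested. Leaving out each library in turn gave 0 to 2 calls for Sox2-KD against Cdk9-KD and 0 for the other comparisons. The median log2FC of the 30 genes then ranged from 0.008 to 0.524 (Sox2-KD against control), 0.053 to 0.512 (hnRNPK-labelled libraries against control) and −0.197 to 0.311 (Cdk9-KD against control). Library totals moved the median of all genes by 0.108 (log2) for Sox2-KD against the hnRNPK-labelled libraries. The labels number the replicates in each group. Correlations of same-numbered deviations ran from −0.223 to 0.21. With 2 replicates a group, these values cannot show whether same-numbered libraries were prepared together. With the replicate number as a block, 0 of the 30 genes were called in every comparison. The counts of all genes called moved from 713 to 695 for Sox2-KD against control and from 23 to 15 for Cdk9-KD against control. Counts of all genes were 1350 (likelihood ratio test) and 1039 (DESeq2) for Sox2-KD against control, and 279 and 226 for Cdk9-KD against control. With 2 replicates a group, standard errors of log2FC for the 30 genes ran from 0.142 to 0.534, which limits what could be called.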

Other observations

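Genes that oxidize fatty acids were read as the counterpart of the synthesis genes. Of 13 genes of fatty acid uptake and oxidation, 12 were tested. Acadl, a long-chain acyl-CoA dehydrogenase, was at 14.4 and 16.0 CPM in control and rose to 26.1 and 26.5 CPM in Sox2-KD (log2FC 0.79, edgeR quasi-likelihood adjusted p = 0.0383). Acadvl, the very-long-chain enzyme, was at 24.5 and 25.6 CPM in Sox2-KD and at 15.3 and 12.4 CPM in Cdk9-KD (log2FC 0.85, adjusted p = 0.0418). The median log2FC of the 12 genes in Sox2-KD against control was 0.06, and the largest was that of Ppara, a fatty acid sensor (1.45, adjusted p = 0.241). Ppara rested on few reads, with 7 and 4 counts in control and 20 and 11 counts in Sox2-KD. Against control the largest were Cpt2 and Plin2 in the hnRNPK-labelled libraries (−0.70 and −0.70) and Ppara and Plin2 in Cdk9-KD (0.67 and −0.43), of which 0 were called. The Acadl call against control was lost when any of its 4 libraries was left out (adjusted p 0.125 to 0.239). The Acadvl call was also lost when any of its 4 libraries was left out (adjusted p 0.0585 to 0.201). Of the cell type markers, 2 of 5 primitive endoderm and 5 of 6 trophectoderm genes tested also rose in Sox2-KD against control, and their part in these differences was not tested.

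Of 12 genes of sterol efflux and the sterol sensor LXR, 11 were tested and 0 were called against control in any group by the quasi-likelihood test. The shares of all genes called were 4.32% in Sox2-KD, 0.0% in the hnRNPK-labelled libraries and 0.139% in Cdk9-KD. The largest log2FC against control were those of Nr1h3 and Mylip in Sox2-KD (0.89 and 0.73), Abcg1 and Nr1h3 in the hnRNPK-labelled libraries (−1.30 and 0.86) and Nr1h3 and Cyp46a1 in Cdk9-KD (0.95 and 0.88). Nr1h3 (0.39 to 1.17 CPM over all libraries) and Cyp46a1 (0.76 to 2.72 CPM) rested on few reads. Mylip was at 20.2 and 23.3 CPM in Sox2-KD, against 11.7 and 12.2 CPM in Cdk9-KD (log2FC 0.86, adjusted p = 0.0463) and 8.44 and 12.3 CPM in the hnRNPK-labelled libraries (log2FC 1.06, adjusted p = 0.0263). Abcg1, a sterol exporter, was at 6.65 and 9.13 CPM in Sox2-KD and at 1.88 and 2.44 CPM in the hnRNPK-labelled libraries (log2FC 1.86, adjusted p = 0.0242). Apoe, the lipoprotein component, was at 302 and 311 CPM in Sox2-KD and at 705 and 415 CPM in Cdk9-KD (log2FC −0.87, adjusted p = 0.0348). Without Cdk9-KD replicate 1 the Apoe difference was −0.42 (adjusted p = 0.157), and its call remained only without Cdk9-KD replicate 2 (adjusted p = 0.00695). The Mylip call against Cdk9-KD was lost when any of its 4 libraries was left out (adjusted p 0.0931 to 0.26). Those of Mylip and Abcg1 against the hnRNPK-labelled libraries remained only without Sox2-KD replicate 1 (adjusted p = 0.0479 and 0.0331).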
